A study of Mus musculus with 12 samples.

Results

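The 7 genes described here, which mark epithelial character, were followed in a culture of mouse embryonic fibroblasts (MEFs): the keratins Krt7, Krt8, Krt18, Krt19, Krt14 and Krt5, and the adhesion molecule Epcam. They were taken by symbol from a table of 25117 gene symbols, in which 7 of 7 were found, and they are compared with the 49 other keratins of that table. The study asked what loss of RBBP5 does to these cells when they are fed and when they are starved. All MEFs carried the same alleles, Rbbp5 (flox/flox) and Rosa26 CRE (+/+), so the cells labelled wildtype also hold the floxed gene and the recombinase, which sits at a locus active in most cell types. The cells labelled RBBP5 KO had tamoxifen for 7 days, and those labelled wildtype had none, so the effect of the drug and that of the deletion cannot be told apart. The last 16 hours were spent in full DMEM with serum or in EBSS, Earle's balanced salt solution, which holds salts and glucose but no amino acids or serum. There were 3 libraries in each of the 4 groups, 12 in all, of polyadenylated RNA. Nothing in the labels says that the 3 came from separate embryos, so a p-value here measures the spread between these samples, which may be technical.

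Keratins are the intermediate filament proteins of epithelia. A filament needs a type I and a type II keratin in equal amounts: Krt8 (type II) pairs with Krt18 (type I) in simple epithelia, Krt7 (type II) usually pairs with Krt19 (type I) in ducts, linings and mesothelium, and Krt5 (type II) pairs with Krt14 (type I) in the basal cells of layered epithelia such as epidermis. Epcam is a surface protein found on most epithelial cells and absent from fibroblasts, whose own intermediate filament protein is vimentin. RBBP5 is a core subunit of the complexes that methylate histone H3 at the K4 position, a mark of active promoters.

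Values are TPM, a transcript's share of its library corrected for length, so levels of different genes can be set side by side. Differences between groups are given as log2(TPM + 1), a scale on which low genes change less than their ratio says. They come from a limma fit over the 12653 genes with at least 1 TPM in 3 libraries or more, and adjusted p-values are Benjamini-Hochberg values over all of these, with 0.05 as the threshold. Sequencing depth is unknown, because TPM keeps none.

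The target of the deletion put the EBSS labels in doubt. Rbbp5 was at 26 ± 0.281 TPM (SD, n = 3) in wildtype and 8.37 ± 0.936 in KO libraries in full medium, a log2 difference of −1.53 (SE 0.13, limma adjusted p = 3.4e-06). It was at 26.5 ± 4.75 TPM in the libraries labelled KO, EBSS and at 12.7 ± 1.1 in those labelled wildtype, EBSS, the reverse of their labels, so both are named by label below. Which exons were removed is not stated here, and gene TPM can include exons that remain. The labelled wildtype EBSS libraries also stood apart in make-up: ribosomal protein mRNAs took 31.6% to 34.1% of their TPM against 14.6% to 18.3% in the other 9 libraries, and the ribosomal RNA precursor Rn45s was at 1454 to 2105 TPM against 68.3 to 272. The median log2 change of all tested genes was −0.94 from wildtype full medium to labelled wildtype EBSS, and −0.10 after median-of-ratios scaling, which sets the median ratio between libraries to 1. With that scaling Rbbp5 was still higher in labelled KO EBSS than in KO full libraries, by 1.39 (adjusted p = 3.7e-06, limma), but no longer differed past the threshold between the EBSS groups (0.08, adjusted p = 0.56). The labelled wildtype EBSS libraries were then level with wildtype full (−0.03, adjusted p = 0.82, limma) and 1.31 above KO full (adjusted p = 2.6e-06). Levels and sums in TPM are as deposited throughout. Within this group, replicate 3 differed from the other 2 libraries in several markers, among them Cldn7 at 7.47 TPM against at most 0.162, and Lyz2, a myeloid lysozyme, at 48.4 TPM against 2.22 and 2.93.

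Of the 7 genes, 4 passed the filter (Krt7, Krt8, Krt18 and Krt19), and each of these had at least 1 TPM in some library of every group. Krt14, Krt5 and Epcam stayed below 1 TPM in all 12 libraries. Krt19 was far above the others, at 96.7 to 271 TPM. Krt7 followed at 1.52 to 13.6 TPM, Krt8 at 1.12 to 6.48 and Krt18 at 0.646 to 3.91. The fibroblast filament gene led by far: Vim, which encodes vimentin, was at 1973 to 3235 TPM, 10.8 to 20.4 times the level of Krt19 in the same library.

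**Figure D1:**
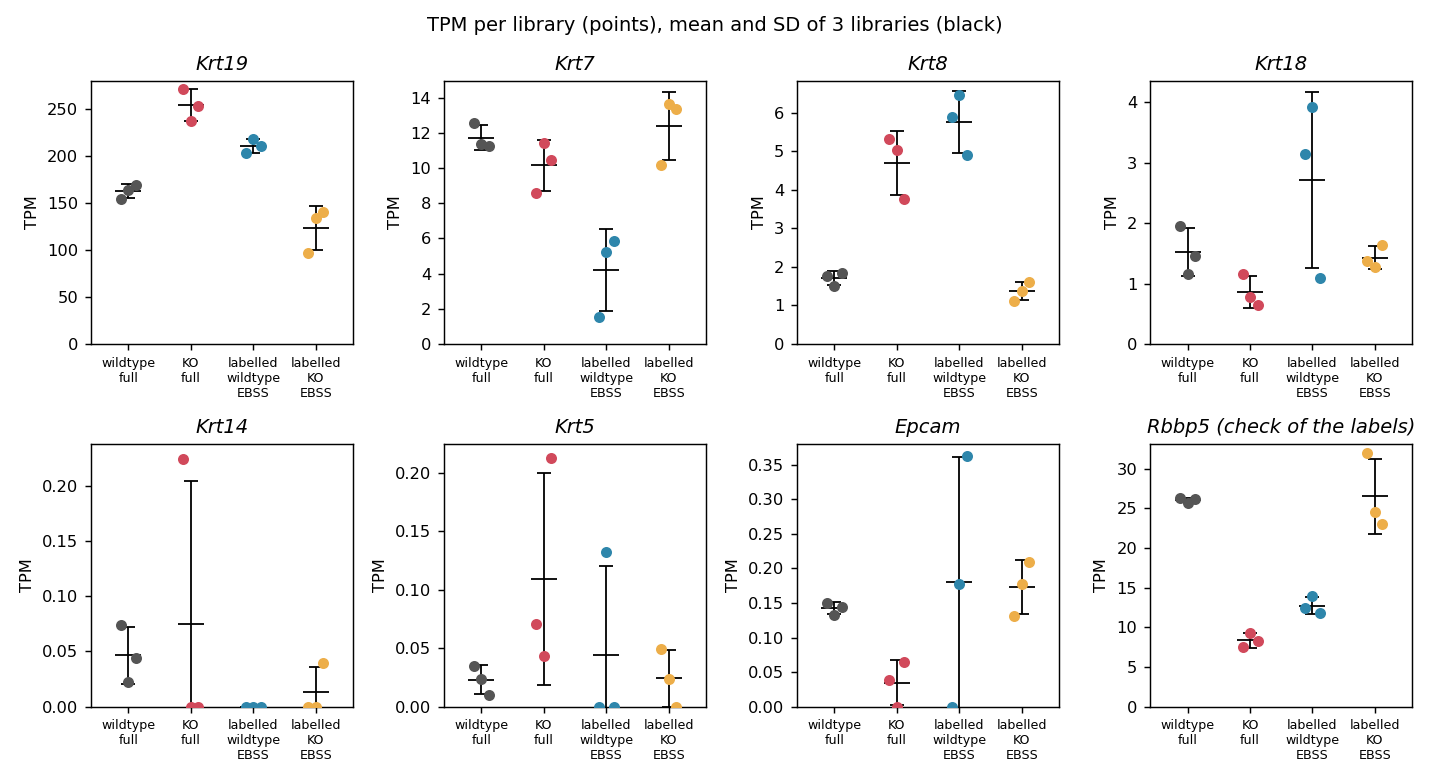
TPM of the 7 genes and of Rbbp5 in each library (points), with the mean and SD of the 3 libraries of a group in black and a linear axis from 0 in each panel (error bars are drawn no lower than 0). Krt19 and Krt8 were higher in KO than in wildtype libraries in full medium, Krt7 was lowest in labelled wildtype EBSS libraries, and Krt14, Krt5 and Epcam were below 0.4 TPM throughout.

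The type I keratin Krt19 (ENSMUSG00000020911.14, chromosome 11 from 100140810 to 100148665, minus strand, GRCm38) was the leading keratin in every library. It lacks the tail domain that other keratins have and is used as a marker of ductal, mesothelial and trophoblast cells. Wildtype libraries in full medium held it at 154, 164 and 169 TPM. KO libraries in full medium held it at 271, 237 and 253 TPM, all above the wildtype ones. The labelled wildtype EBSS libraries were at 203, 218 and 211 TPM. Those labelled KO, EBSS were at 96.7, 134 and 141 TPM, the lowest group, with replicate 1 below the other 2. By mean, the order was KO full (254 ± 16.9 TPM), labelled wildtype EBSS (211 ± 7.8), wildtype full (162 ± 7.46) and labelled KO EBSS (124 ± 23.6), with no overlap of libraries between neighbours in that order.

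In full medium, KO libraries had 1.56-fold more Krt19 than wildtype ones (log2 difference 0.64, SE 0.12, limma adjusted p = 0.00097). EBSS went with a rise in the labelled wildtype cells, of 0.38 (adjusted p = 0.014, limma) as deposited and of 1.37 with median-of-ratios scaling. In labelled KO cells EBSS went with a fall, of −1.05 (adjusted p = 3e-05, limma) and −1.20 with the scaling. Between the highest groups, KO full and labelled wildtype EBSS, the difference did not pass as deposited (−0.27, 95% interval −0.53 to 0.00, adjusted p = 0.066, limma) and turned to 0.54 (adjusted p = 0.0077) with the scaling, so their order depends on it. Wildtype full and labelled KO EBSS differed by −0.41 (interval −0.67 to −0.14), with an unadjusted p of 0.0065 and an adjusted p of 0.25 in limma. Without replicate 1 of labelled KO EBSS this difference was −0.24.

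The type II keratin Krt7 (ENSMUSG00000023039.17, chromosome 15 from 101411043 to 101430313, plus strand) marks ducts, bladder lining and mesothelium. It was at 12.5, 11.4 and 11.3 TPM in wildtype libraries and 8.57, 11.4 and 10.4 TPM in KO libraries in full medium, which overlapped. The labelled KO EBSS libraries were in the same range, at 10.2, 13.6 and 13.4 TPM. Only the labelled wildtype EBSS libraries lay below, at 1.52, 5.21 and 5.88 TPM, with replicate 1 lowest. An annotated antisense gene, Gm671, overlaps Krt7, and no strand setting of the counting is known here, so reads of the pair may not be told apart.

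Krt7 did not pass between genotypes in full medium (log2 difference −0.20, interval −0.88 to 0.48, limma adjusted p = 0.61), nor between media in labelled KO cells (0.26, interval −0.42 to 0.94, adjusted p = 0.50). It fell from wildtype full to labelled wildtype EBSS by −1.42 (SE 0.31, adjusted p = 0.0012, limma), a mean of 4.2 ± 2.35 against 11.7 ± 0.71 TPM. With median-of-ratios scaling this fall was −0.58 and did not pass (adjusted p = 0.14, limma). Against labelled KO EBSS the labelled wildtype EBSS libraries were lower by 1.48 (adjusted p = 0.00093, limma), and by 0.68 with the scaling (adjusted p = 0.09).

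Krt8 (ENSMUSG00000049382.10, chromosome 15 from 101996698 to 102004482, minus strand) and Krt18 (ENSMUSG00000023043.7, chromosome 15 from 102028180 to 102032027, plus strand) encode the pair of simple epithelia and are the first keratins made in the embryo. They are neighbours that point away from each other, with starts 23.7 kb apart. A lincRNA gene, Gm36026, overlaps Krt8 on the other strand. The annotation also lists a processed pseudogene, Krt8-ps on chromosome 7, that has no entry of its own in the table, so how its reads were assigned is not known. Because these neighbours passed in different comparisons, the promoters of both are shown with that of Krt7, from RefSeq on GRCm38.p6. Each runs from 250 bases before the RefSeq start to 20 after it, 5′ to 3′ on the gene's strand. The windows are chr15:102004323-102004592 (minus) for Krt8, chr15:102027966-102028235 (plus) for Krt18 and chr15:101412153-101412422 (plus) for Krt7. Capitals mark matches on either strand to 3 motifs. TATAAA is the box that places the start of transcription in many tissue-specific genes, GGGCGG is the GC box of housekeeping promoters, and CACCTG is an E-box that the SNAI and ZEB repressors can bind. TGANTCA (an AP-1 site) and AACCGGTT (a grainyhead site) were searched as well and have no match in these 3 windows.
Krt8: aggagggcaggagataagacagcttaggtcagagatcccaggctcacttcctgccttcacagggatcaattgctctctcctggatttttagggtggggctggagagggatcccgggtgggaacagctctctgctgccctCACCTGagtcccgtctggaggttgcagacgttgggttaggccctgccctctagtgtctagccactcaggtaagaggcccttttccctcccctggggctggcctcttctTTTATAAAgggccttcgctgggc
Krt18: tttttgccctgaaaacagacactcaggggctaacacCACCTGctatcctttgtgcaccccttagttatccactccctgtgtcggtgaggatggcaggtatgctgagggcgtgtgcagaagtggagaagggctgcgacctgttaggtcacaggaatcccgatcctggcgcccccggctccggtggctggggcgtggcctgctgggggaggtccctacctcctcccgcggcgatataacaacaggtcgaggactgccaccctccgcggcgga
Krt7: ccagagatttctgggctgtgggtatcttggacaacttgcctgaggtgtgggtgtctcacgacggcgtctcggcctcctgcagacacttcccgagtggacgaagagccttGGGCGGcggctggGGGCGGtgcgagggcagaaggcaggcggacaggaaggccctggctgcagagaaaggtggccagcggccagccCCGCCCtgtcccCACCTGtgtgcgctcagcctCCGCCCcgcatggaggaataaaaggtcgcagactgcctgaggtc
Krt8 has 2 overlapping matches to TATAAA, 1 on each strand, at −3 and −1 and so across the RefSeq start. The GENCODE end of this minus-strand gene, 102004482, lies upstream of that start. So these matches are not shown to place the start of Krt8. Neither other window has a match to TATAAA, and 12.9% of the 32851 RefSeq promoter windows of this length do. The Krt8 window holds 4 CpG sites against 15 for Krt18 and 17 for Krt7, where the median window holds 6. Krt7 has 4 GC boxes (34.1% of windows have any), and Krt8 and Krt18 have 0. One CACCTG lies in each of the 3 windows, and 18.4% of windows hold it. These are matches of letters, not sites shown to be bound. RefSeq promoters were matched for 6 of the 7 genes, and none for Krt19.

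Krt8 was higher in KO full and labelled wildtype EBSS libraries than in the other 2 groups. In full medium it stood at 1.77, 1.5 and 1.84 TPM in wildtype and 5.33, 5.03 and 3.77 TPM in KO libraries. In EBSS the labelled wildtype libraries were at 5.90, 6.48 and 4.90 TPM and the labelled KO libraries at 1.12, 1.38 and 1.60 TPM. The high and the low pair of groups did not overlap, while within each pair they did.

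From wildtype to KO in full medium, Krt8 rose 2.76-fold (log2 difference 1.07, interval 0.73 to 1.40, limma adjusted p = 0.00013). From full medium to EBSS it rose 3.38-fold in labelled wildtype cells (1.32, adjusted p = 9.2e-06, limma; 2.11 with median-of-ratios scaling) and fell in labelled KO cells (−1.26, adjusted p = 4e-05, limma). KO full and labelled wildtype EBSS did not differ past the threshold as deposited (0.25, interval −0.09 to 0.58, adjusted p = 0.16, limma). With the scaling the labelled wildtype EBSS libraries were higher by 0.95 (adjusted p = 0.00051, limma). Wildtype full and labelled KO EBSS differed by −0.19 (interval −0.53 to 0.15, adjusted p = 0.68, limma).

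Its partner Krt18 did not pass between genotypes in full medium. Its levels were 1.94, 1.16 and 1.46 TPM in wildtype and 1.16, 0.784 and 0.646 TPM in KO libraries in full medium. The difference was −0.43 (interval −1.03 to 0.16, limma adjusted p = 0.19), on the other side of 0 from that of Krt8. The labelled wildtype EBSS libraries were spread, at 3.14, 3.91 and 1.10 TPM, and those labelled KO, EBSS were at 1.37, 1.28 and 1.64 TPM.

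Krt18 was higher in labelled wildtype EBSS than in KO full libraries by 0.92 (SE 0.27, adjusted p = 0.0091, limma), and by 1.48 with median-of-ratios scaling. It did not pass from wildtype full to labelled wildtype EBSS (0.48, adjusted p = 0.12, limma), but did with the scaling (1.17, adjusted p = 0.0065). Replicate 3 of labelled wildtype EBSS decided the value as deposited: without it the difference was 0.85 (adjusted p = 0.0005, limma). Leaving the same library out also brought the full-medium difference between genotypes past the threshold (adjusted p = 0.021, limma).

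The ratio of Krt8 to Krt18 was not tested, and is given per library. It was 0.911 to 1.29 in wildtype full libraries and 0.822 to 1.08 in labelled KO EBSS libraries, near 1. KO full libraries had 4.59 to 6.41 and labelled wildtype EBSS libraries 1.65 to 4.47, all above those of the other 2 groups. At the low TPM of both genes the counting error behind these ratios is unknown.

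**Figure D2:**
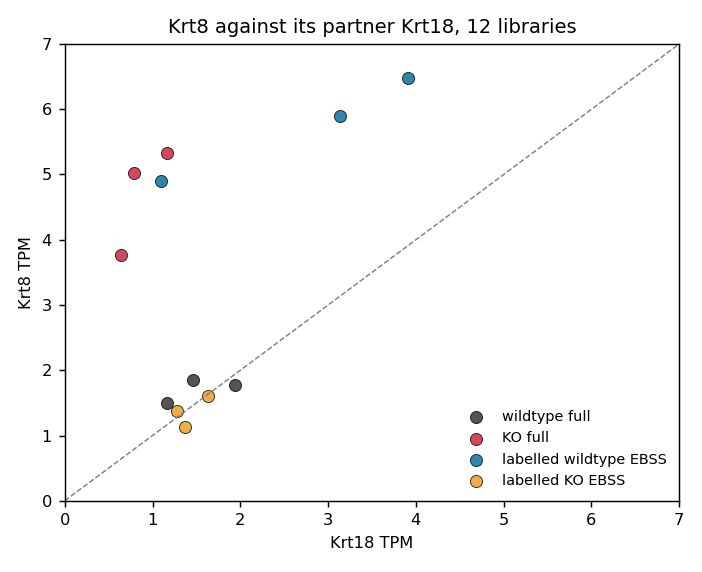
Krt8 (vertical axis, TPM) against its partner Krt18 (horizontal axis, TPM) in the 12 libraries, coloured by group, with a dashed line where both are equal. Wildtype full and labelled KO EBSS libraries lie at the line (ratios of 0.822 to 1.29), and the KO full and labelled wildtype EBSS libraries lie above it (1.65 to 6.41).

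The basal keratins and Epcam were close to 0. Krt14 (chromosome 11 from 100203162 to 100207548) was at most 0.224 TPM, in KO full replicate 1, and was listed at 0 in 7 of the 12 libraries. Krt5 (chromosome 15 from 101707070 to 101712898) reached 0.213 TPM in KO full replicate 3 and was listed at 0 in 3 libraries. Epcam (chromosome 17 from 87635979 to 87651129) was at 0.150, 0.133 and 0.144 TPM in wildtype and 0.0382, 0 and 0.0653 TPM in KO libraries in full medium. In EBSS Epcam was at 0, 0.178 and 0.362 TPM in libraries labelled wildtype and 0.132, 0.178 and 0.209 TPM in those labelled KO. The KO full values of Epcam lay below the wildtype full ones, but all are under 1 TPM and were not tested.

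Some other genes used to define epithelium, picked with their values in view, also stayed below 1 TPM. Cdh1, which encodes E-cadherin, was at 0.147 to 0.694 TPM over the 12 libraries, and the epithelial regulators Grhl2, Esrp1 and Ovol1 stayed at or under 0.229, 0.145 and 0.0549 TPM. Desmoplakin (Dsp), which ties keratin filaments to desmosomes, reached 0.114 TPM at most. Other genes of the same lists were higher: 11 of 20 junction genes, 6 of 17 epithelial transcription and splicing factors and 6 of 8 desmosomal plaque genes had at least 1 TPM in some library. These libraries held simple keratins, led by Krt19, without Epcam, Cdh1 or the basal pair at a level above 1 TPM. In bulk RNA, few cells with much of an mRNA and many cells with little cannot be told apart.

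Keratin mRNA as a whole was narrow in its make-up. Of 55 keratin genes in the table, 46 were below 1 TPM in every library and 9 ever reached it: Krt7, Krt8, Krt18, Krt19, Krt10, Krt13, Krt15, Krt16 and Krt80. Beside the 4 tested above, Krt80, Krt13 and Krt10 passed the filter. Krt80, a type II keratin with a wide range of epithelial sites, was second to Krt19, at 110 ± 2.09 TPM in wildtype full and 122 ± 8 TPM in KO full libraries. It was at 10.7, 14.1 and 4.42 TPM in labelled wildtype EBSS libraries and at 61.1, 104 and 106 TPM in labelled KO EBSS libraries. The fall of Krt80 from wildtype full to labelled wildtype EBSS was −3.50 on the log2 scale (SE 0.32, adjusted p = 1.3e-06, limma) and −2.56 with median-of-ratios scaling.

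All 55 keratins together summed to 290 to 307 TPM in wildtype full and 410 to 428 TPM in KO full libraries. The sums in EBSS were 232 to 255 TPM for labelled wildtype and 183 to 276 TPM for labelled KO libraries. Krt19 made up 53.2% to 55% of keratin TPM in wildtype full, 57.8% to 63.6% in KO full and 49.6% to 52.9% in labelled KO EBSS libraries. In labelled wildtype EBSS libraries its share was 84.4% to 87.4%, above every other library. With little Krt80 and Krt7 there, type I keratin TPM was 8.45 to 15.4 times type II TPM, against 1.35 to 1.43 in wildtype full, 1.88 to 2.32 in KO full and 1.23 to 1.49 in labelled KO EBSS libraries. Shares and ratios within a library do not depend on its scaling.

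**Figure D3:**
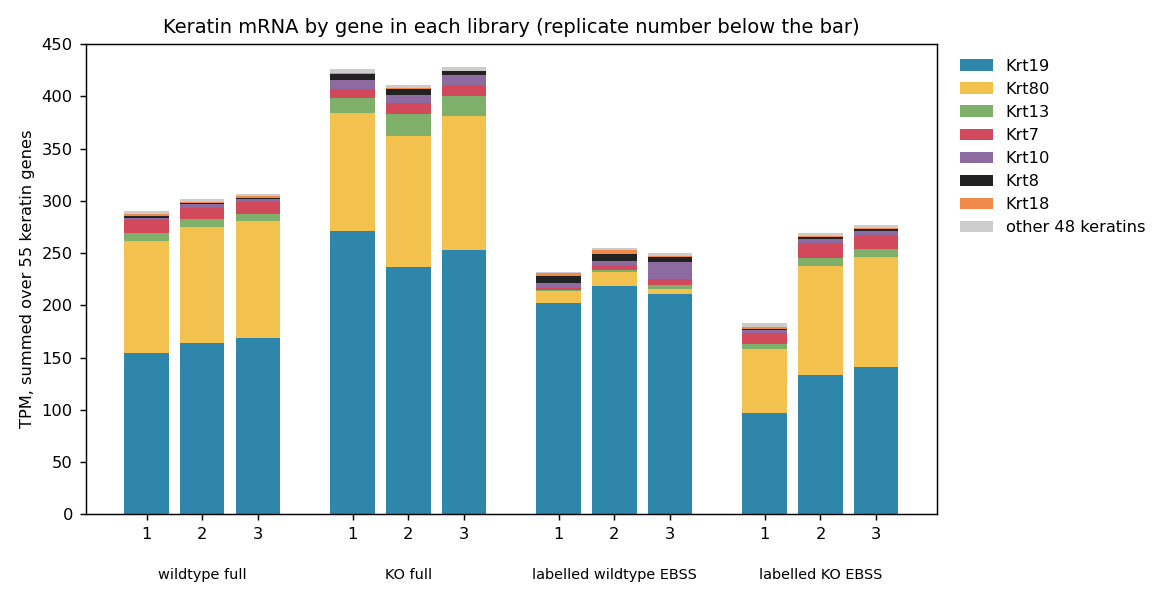
Stacked bars of keratin TPM by gene in each of the 12 libraries, summed over 55 keratin genes, with the replicate number below each bar. Krt19 and Krt80 make up most of the height in 9 libraries, and in the 3 labelled wildtype EBSS libraries Krt80 is reduced to 4.42 to 14.1 TPM.

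The counts of members that passed were read against the share of all tested genes that did. For KO against wildtype in full medium, 2 of the 4 tested members passed, both higher (Krt8 and Krt19), where 55.9% of all tested genes passed, 20.1% higher and 35.8% lower. The split of all calls was 2545 higher and 4533 lower as deposited, and 3386 and 3410 with median-of-ratios scaling. From full medium to EBSS, 3 of 4 passed in labelled wildtype cells (Krt8 and Krt19 higher, Krt7 lower), against 81.1% of genes in all, with 1170 (9.25%) higher and 9090 (71.8%) lower as deposited and 3837 and 4523 with the scaling. With it 3 of 4 members passed as well, Krt8, Krt18 and Krt19, all higher. In labelled KO cells 2 of 4 passed, both lower (Krt8 and Krt19), against 54.2% in all, with 4217 (33.3%) higher and 2644 (20.9%) lower as deposited and 3290 and 3320 with the scaling. Each of these 3 counts of members is close to the share of all genes that passed.

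Between the EBSS groups, 3 of 4 members passed for labelled KO against labelled wildtype (Krt7 higher, Krt8 and Krt19 lower), against 80.5% of genes in all, 71.9% higher and 8.58% lower. Here Krt8 differed by −1.51 (adjusted p = 3.3e-06, limma), Krt19 by −0.78 (adjusted p = 0.0001) and Krt18 by −0.53 (adjusted p = 0.091), where 9097 genes were higher and 1085 lower as deposited and 4408 and 3665 with the scaling. With it Krt8 differed by −2.26, Krt19 by −1.74 and Krt18 by −1.19 (adjusted p = 8.5e-07, 2.3e-06 and 0.0062, limma), so 3 members passed, all lower, and Krt7 did not. For labelled wildtype EBSS against KO full 2 of 4 passed (Krt18 higher, Krt7 lower), against 75.1% of genes, with 1467 (11.6%) higher and 8032 (63.5%) lower as deposited and 3727 and 4258 with the scaling. With it 3 of 4 members passed, Krt8, Krt18 and Krt19, all higher, and Krt7 did not (−1.22 as deposited, −0.56 with the scaling, adjusted p = 0.16, limma).

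Labelled KO EBSS against wildtype full gave 0 of the 4 members in limma, 1 at an unadjusted p under 0.05 (Krt19), and 0 with median-of-ratios scaling as well. In that comparison 0.134% of all genes (17) passed, 0.0869% higher and 0.0474% lower. The intervals of Krt7 (−0.62 to 0.75) and Krt18 (−0.64 to 0.55) leave room for differences of either sign. These comparisons share libraries, so their values are not independent of each other.

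**Figure D4:**
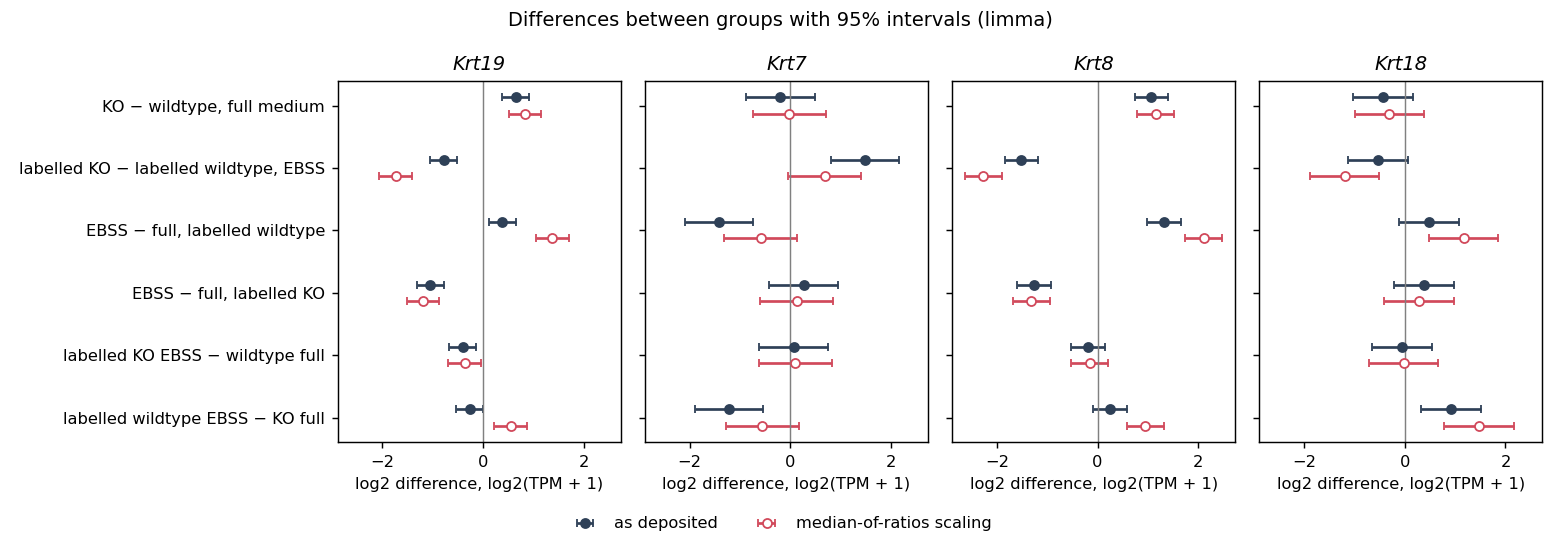
Differences between groups on the log2(TPM + 1) scale with 95% intervals from limma, for the 4 members that passed the filter, as deposited (filled) and with median-of-ratios scaling (open). The scaling moves each comparison that holds the labelled wildtype EBSS group, and turns Krt19 from −0.27 to 0.54 against KO full, while the KO against wildtype difference of Krt8 in full medium is 1.07 and 1.16.

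The genotype difference itself changed with medium, by label, for 3 of 4 members as deposited and for 2 of 4 with median-of-ratios scaling. The difference between the labelled KO against wildtype values in EBSS and in full medium was −2.58 for Krt8 (SE 0.22, adjusted p = 8.3e-07, limma), −1.42 for Krt19 (SE 0.17, adjusted p = 1.6e-05) and 1.68 for Krt7 (SE 0.44, adjusted p = 0.0044). For Krt18 it was −0.09 (SE 0.38, adjusted p = 0.83, limma). Among all genes 76.7% passed this test (8123 or 64.2% higher and 1587 or 12.5% lower as deposited, 4314 and 4144 with the scaling). With the scaling the values were −3.42 for Krt8 and −2.57 for Krt19 (adjusted p = 4.5e-07 and 1.4e-06, limma). Krt7 (0.71, adjusted p = 0.20, limma) and Krt18 (−0.89, adjusted p = 0.097) did not pass with it. The EBSS labels in doubt enter each of these values.

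The other parts of an epithelial cell were read from lists of named genes, each described by its count and its median beside the median of all genes. In full medium the median over all tested genes was −0.17 for KO against wildtype, with 20.1% of them higher and 35.8% lower as deposited. Of 49 other keratins 3 were tested and 2 rose, Krt10 by 1.42 (SE 0.37, adjusted p = 0.0071, limma) and Krt13 by 1.23 (SE 0.28, adjusted p = 0.003), both keratins of layered epithelia. Their levels in full medium were 1.92 to 3.10 TPM in wildtype and 7.67 to 9.14 TPM in KO libraries for Krt10, and 6.85 to 7.39 against 15.0 to 20.3 TPM for Krt13. Neither range overlapped.

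Among genes that anchor keratins, the hemidesmosome list had 6 of 8 tested, 3 higher and 1 lower (median 0.27). Lamb3, a chain of a basement membrane laminin, rose by 3.23, the integrin Itgb4 by 1.06 and the tetraspanin Cd151 by 0.42 (adjusted p = 1.5e-06, 5.3e-05 and 0.0066, limma). The 1 that fell was Dst, which encodes the plakin dystonin, by −0.52 (adjusted p = 0.0083, limma). Lamb3 was at 0.327 to 0.375 TPM in wildtype and 9.98 to 14.5 TPM in KO full libraries. Itgb4 passed the filter through the KO full libraries alone, and Lamb3 only through KO full and labelled wildtype EBSS libraries. The desmosomal plaque list had 5 of 8 tested, 1 higher (the plakophilin Pkp3, 2.00) and 1 lower (periplakin, Ppl, −0.54), with a median of 0.07.

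Junction genes had 9 of 20 tested, 3 higher and 1 lower (median 0.24): the tight junction genes Cldn4 (1.39) and F11r (1.14) and the adhesion gene Nectin4 (0.57) rose, and Tjp1 fell (−0.84). Nectin4 no longer passed with median-of-ratios scaling (adjusted p = 0.06, limma). It passed the filter through the labelled wildtype EBSS libraries alone. In full medium it was under 1 TPM in every library, at 0.0904 to 0.174 TPM in wildtype and 0.602 to 0.793 TPM in KO ones. Of 17 epithelial transcription and splicing factors 5 were tested and 4 rose (median 0.87): Klf4 (2.00), Grhl1 (1.05), Esrp2 (0.87) and Trp63 (0.71). Grhl1 passed the filter only through KO full and labelled wildtype EBSS libraries, so its test depended on groups where it is high. Surface and trafficking genes had 5 of 10 tested, 2 higher and 1 lower (median −0.35; 2 higher and 0 lower with median-of-ratios scaling), led by the intestinal cadherin Cdh17 (3.97, adjusted p = 6.2e-08, limma). Cdh17 was at 3.37 to 3.70 TPM in wildtype and 68.0 to 72.4 TPM in KO full libraries. Sfn was also higher there, at 6.88 to 7.80 TPM against 4.74 to 5.42 TPM in wildtype full libraries. Spint1, Spint2 and Muc1 of the same list had lower TPM in KO full than in wildtype full libraries. Of these genes 1 passed as deposited, and 0 with the scaling. Spint1 and Spint2 had 0 KO full libraries at 1 TPM or more, so they passed the filter through the other groups. Spint1 was at 0.842 to 1.16 TPM in wildtype full and 0 to 0.0882 TPM in KO full libraries.

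Of 10 mesenchymal transcription factors, all tested, 6 fell and 0 rose in KO full libraries (median −1.01, where 35.8% of all genes fell), led by Tcf4 (−2.35), Prrx1 (−2.34), Snai1 (−2.23) and Zeb1 (−1.60). With median-of-ratios scaling 6 fell and 1 rose. Of 10 fibroblast markers 9 were tested and 7 fell (median −2.0), among them Col3a1 by −3.88 and the receptor gene Pdgfra by −3.23. Pdgfra, and Thy1 and Lum of the same list, had 0 KO full libraries at 1 TPM or more, so they passed the filter only through other groups. Non-keratin intermediate filaments had 7 of 12 tested, with the muscle filament desmin (Des) higher by 2.00 and nestin (Nes) at −1.38. Vim did not pass (0.12, adjusted p = 0.41, limma).

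**Figure D5:**
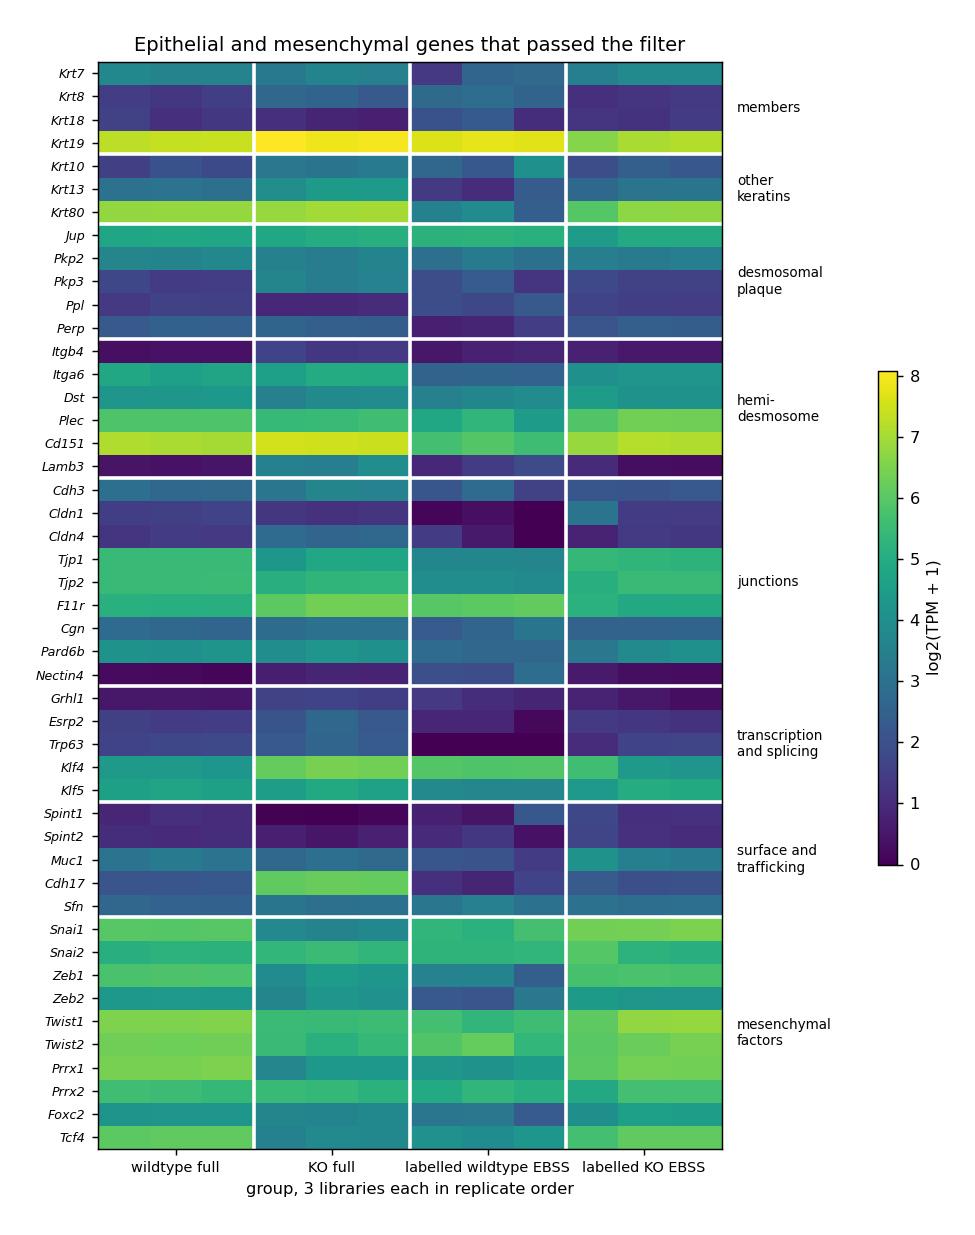
Level, as log2(TPM + 1) on a colour scale that starts at 0, of the keratins, epithelial genes and mesenchymal factors that passed the filter (one line per gene) in the 12 libraries (one column each). In KO full libraries Cdh17, Klf4, Lamb3 and Krt19 are brighter and Snai1, Zeb1, Prrx1 and Tcf4 darker than in wildtype full libraries. Other genes shown go the other way, among them Tjp1, Dst and Spint1, which are lower in KO full libraries. Snai2 is higher there, at 39.2 to 44.7 against 32.6 to 36.1 TPM, but did not pass as deposited. Of the genes shown, 0 passed between labelled KO EBSS and wildtype full libraries.

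In EBSS the counts of these lists depended on the scaling. As deposited, 9.25% of all tested genes were higher and 71.8% lower from wildtype full to labelled wildtype EBSS. From wildtype full to labelled wildtype EBSS, the hemidesmosome list had 2 higher and 4 lower of 6 (median −0.78, against −0.94 for all genes), and 3 higher and 2 lower with median-of-ratios scaling. Junction genes had 2 higher and 6 lower of 9, and 3 higher and 4 lower with the scaling. Epithelial transcription and splicing factors had 2 higher and 3 lower of 5, and 2 higher and 1 lower with the scaling. Among them Klf4 rose by 1.57 (adjusted p = 0.00026, limma) and by 2.55 with the scaling, and Trp63 fell by 1.71 and by 1.49. Trp63 had 0 labelled wildtype EBSS libraries at 1 TPM or more, so it passed the filter only through the groups where it is high. Mesenchymal factors had 0 higher and 8 lower of 10 as deposited, close to the 71.8% of all genes that were lower. With the scaling 3 were higher and 4 lower.

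From KO full to labelled KO EBSS the median of all genes was 0.13, with 33.3% of them higher and 20.9% lower as deposited. Epithelial transcription factors had 4 of 5 lower (median −1.03), hemidesmosome genes 4 of 6 lower and 2 higher, and junction genes 3 of 9 lower and 1 higher. Desmosomal plaque genes had 1 higher and 1 lower of 5, and surface and trafficking genes 3 higher and 1 lower of 5. Cdh17 fell by 4.06 and Lamb3 by 3.15 (adjusted p = 4.7e-08 and 1.9e-06, limma). Mesenchymal factors had 7 of 10 higher (median 0.99), and fibroblast markers 8 of 9. With median-of-ratios scaling junction genes had 4 lower and 1 higher, and surface and trafficking genes 2 higher and 1 lower. Mesenchymal factors then had 6 higher and fibroblast markers 7, and the counts of the other lists named here were unchanged. This comparison shares the KO full libraries with the genotype comparison. Between wildtype full and labelled KO EBSS, 0 genes of these lists passed.

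Markers of other cells that can hold simple keratins moved with the groups as well. Mesothelial markers were 7 of 8 in the table and summed to 441 to 461 TPM in wildtype full, 160 to 185 in KO full, 213 to 288 in labelled wildtype EBSS and 330 to 407 in labelled KO EBSS libraries. Msln, which encodes mesothelin, made up nearly all of this sum and fell in KO full libraries by 1.41 (adjusted p = 2.2e-06, limma), opposite in direction to Krt19. Upk3b, a uroplakin gene of mesothelium and bladder lining and the other 1 of the 2 tested, rose by 1.28 (adjusted p = 0.0015, limma), with 0.228 ± 0.0585 TPM (SD, n = 3) in wildtype and 2.11 ± 1.09 TPM in KO full libraries. Upk3b passed the filter only through KO full and labelled wildtype EBSS libraries. Wt1, another defining mesothelial gene, was at most 0.0171 TPM. Trophoblast markers summed to 55.6 to 57.6, 73.6 to 84.6, 13.7 to 21.1 and 40.0 to 68.4 TPM in the same order of groups. The placental hormone genes Prl2c2 and Prl3d1 rose in KO full libraries by 2.75 and 2.62 (Prl3d1 passed the filter through these libraries alone), and Gata3 fell by 0.85. Eomes, the other 1 of the 4 tested, did not pass and was at 3.02 to 10.0 TPM over the 12 libraries. Cdx2 and Tpbpa were listed at 0 in all 12 libraries. Prl2c2 belongs to a family of near-identical copies, so its value is uncertain.

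Macrophage markers summed to 17.0 to 17.3 TPM in wildtype full, 60.8 to 65.4 in KO full, 17.8 to 77.0 in labelled wildtype EBSS and 17.3 to 21.0 in labelled KO EBSS libraries. The 77.0 came from replicate 3 of labelled wildtype EBSS, where Lyz2 was at 48.4 TPM against 2.22 and 2.93 in the others of its group. Most of the KO full sum was Cd68, a lysosomal protein also made outside macrophages, which rose by 1.78. Of the 2 markers tested, 1 passed. The pan-leukocyte gene Ptprc was at 0.0126 to 0.0285 TPM in wildtype full and 0.176 to 0.38 TPM in KO full libraries. Lyz2 was at 0.280 to 0.358 against 2.15 to 5.19 TPM, and Itgam at 0 to 0.0358 against 0.417 to 0.499 TPM. Adgre1 was listed at 0 in wildtype full and was at 0.178 to 0.209 TPM in KO full libraries, while Csf1r overlapped between them. Endothelial markers summed to 3.51 to 3.81, 8.25 to 9.05, 3.48 to 10.7 and 3.33 to 5.23 TPM, with Vwf higher by 2.86 and Kdr changed by −1.45 in KO full libraries. Vwf had 0 wildtype full libraries and Kdr 0 KO full libraries at 1 TPM or more, so their tests depended on groups where they are high. The 10.7 was the same replicate 3, with Pecam1 at 4.48 TPM against 0.406 and 0.773 in the others of its group. The part of these cells in the keratin differences was not tested.

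The genes with the pattern most like each member over the 12 libraries are given as a description, by Pearson correlation of log2(TPM + 1). The libraries fall into groups and share scaling, so high values are common. For Krt19 these were Epha2 (0.98), a receptor tyrosine kinase, Dusp1 (0.97), a phosphatase of the immediate early response, and Atp5mpl (0.96). Krt8 was most like the heat shock co-chaperone Dnajb1 (0.98), Cox4i1 (0.97) and Rps2 (0.97). Krt7 was most like Tmem94 (0.97), Lrrc1 (0.96) and Sh3rf1 (0.96). Krt18 had lower values, with Snora75 (0.92), Mira (0.92) and Dancr (0.91), which were also highest in labelled wildtype EBSS replicates 1 and 2.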

How the data were processed

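Polyadenylated RNA was sequenced from 12 MEF libraries, 3 per group. Groups and replicate numbers came from the sample titles. The authors deposited 1 table of TPM values per gene symbol. The submitters' processing notes name Salmon and mm10. Version, annotation, strand setting and the step from transcripts to genes are not stated here. The 7 genes and all gene lists were chosen with earlier results of these data known. Of the listed genes, 1 is not reported here and was left out of its list's counts.

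TPM was transformed to log2(TPM + 1). One limma 3.58.1 fit (R 4.3.3) with a mean per group was run over the 12653 genes at 1 TPM or more in 3 or more of the 12 libraries, with moderated variances and a variance trend. P-values are two-sided and Benjamini-Hochberg adjusted over those genes. The 6 comparisons of groups and the interaction came from this fit, 7 in all, tested on simulated data with 200 changed genes. In each list described, up to 4 genes that passed with the largest change and no overlap between groups were named, or 1 or 2 of highest mean TPM where none passed. The 3 genes most like each member leave out predicted genes. Genes singled out for 1 library were picked with their values in view.

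Alternatives were pseudocounts of 0.1 and 0.5, no filter, a mean TPM of at least 5, median-of-ratios and quantile scaling, ribosomal protein genes left out, only the libraries compared, no variance trend, a replicate block, and leaving out each library in turn. Coordinates are from GENCODE vM21 (GRCm38, the assembly mm10 names). Promoters are from RefSeq. Reads were not analysed here. Figures were drawn with matplotlib 3.10.9.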

Additional observations from a re-analysis of the deposited data

Results flagged for a closer look

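The difference between genotypes, by label, was not the same in the 2 media for 3 of the 4 genes tested as deposited, and for 2 of 4 with median-of-ratios scaling. Of all tested genes 76.7% passed the same test as deposited, so 3 of 4 is close to the share of all genes. For Krt8 the genotype difference was 1.07 in full medium and −1.51 in EBSS. The difference between these 2 values, as an interaction in limma, was −2.58 (Benjamini-Hochberg adjusted p = 8.3e-07). With the scaling the EBSS value was −2.26 and the interaction −3.42. For Krt19 it was 0.64 and −0.78, with an interaction of −1.42 (adjusted p = 1.6e-05, limma), and with the scaling the EBSS value was −1.74 and the interaction −2.57. For Krt7 it was −0.20 and 1.48, with an interaction of 1.68 (adjusted p = 0.0044, limma), which was 0.71 and did not pass with the scaling (adjusted p = 0.20). Rbbp5 itself had an interaction of 2.52 (adjusted p = 3.4e-07, limma), and of 1.42 with the scaling (adjusted p = 1.6e-05). With the scaling its level in labelled wildtype EBSS differed from wildtype full by −0.03 (adjusted p = 0.82, limma), while labelled KO EBSS stayed 1.39 above KO full. Whether the EBSS labels are exchanged was not tested.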

How the results depend on the processing

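The rises of Krt8 and Krt19 in KO libraries in full medium, and their falls from KO full to labelled KO EBSS, kept direction and side of the threshold under every alternative in which they were tested. With a mean TPM of at least 5 only Krt19 and Krt7 were tested, and 1 member passed for KO against wildtype in full medium, 1 for EBSS in labelled KO cells and 1 for labelled wildtype EBSS against KO full. Of 598 values of single members under an alternative, 557 kept direction and side, 20 came past the threshold, 8 fell short of it and 13 changed sign; the cause was not tested. Quantile normalization gave 0.13 for Krt7 in KO against wildtype, full medium, and −0.012 for Krt7 and −0.016 for Krt18 for EBSS in labelled KO cells. For Krt19 in labelled wildtype EBSS against KO full, the value was 0.54 with median-of-ratios scaling, 0.21 with quantile normalization and 0.030 without ribosomal protein genes. The interaction of Krt18 was 0.041 with a pseudocount of 0.1, and −0.46 to 0.15 with 1 library left out, above 0 without wildtype full replicate 2, KO full replicate 1 or labelled wildtype EBSS replicate 1 or 2. For labelled KO EBSS against wildtype full, Krt18 ranged from −0.15 to 0.071 with 1 library left out, above 0 without wildtype full replicate 1, and Krt7 from −0.0052 to 0.19, below 0 without labelled KO EBSS replicate 2.

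Leaving out 1 library at a time, members that passed ranged from 2 to 3 for KO against wildtype in full medium, 3 to 4 in EBSS, 3 to 4 for EBSS in labelled wildtype and 2 to 3 in labelled KO cells, 0 to 0 for labelled KO EBSS against wildtype full, 2 to 3 for labelled wildtype EBSS against KO full, and 3 to 3 for the interaction. Without labelled wildtype EBSS replicate 3, Krt8 passed against KO full (adjusted p = 0.046, limma), and 219 genes in place of 17 passed between labelled KO EBSS and wildtype full. That count ranged from 0 to 219 over the libraries left out, and was 249 with only the libraries compared, 56 with quantile normalization, 32 without a filter, 11 with no variance trend and 7 with the replicate block.

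Same-numbered replicates did not deviate together (correlations −0.07 to 0.08 over 18 pairs, with 6 of 12 libraries closest to their own number). No shared effect of the replicate number was seen, which does not show that the samples were prepared without pairing. With the replicate number as a block, 2, 3, 3, 2, 0, 2 and 3 members passed in the 7 comparisons, as without it. Depth is unknown, so how far it limits Krt18, Krt14, Krt5 and Epcam cannot be given.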
